A study of Homo sapiens with 66 samples.

Results

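Loss of MED19 was examined in the absence of drug in A375 cells, an established line from a human melanoma that carries mutant BRAF. The comparison set 6 MED19 knockout libraries, 3 for each of 2 guides (guide 1 and guide 2, weighted equally), against 3 libraries of control cells with a guide named for GFP, which the labels class as WT. These 9 libraries are part of 66 in the series and of 42 in the table that also holds MED23 and MED12 knockout cells and vemurafenib-treated cells, all labelled as batch 1. The knockout cells and the control cells had been kept in DMSO, the solvent of the drug, for 24 h before poly(A) RNA was extracted. MED23 and MED12 knockout cells in DMSO, with 6 libraries each from 2 guides, served for direct comparisons between knockouts. The labels describe no check of the knockout at the DNA or protein level, and do not say whether the cells were pools or clones or whether the replicates were separate cultures, so p-values measure only the spread between these libraries.

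Mediator is a large complex that carries signals from DNA-bound transcription factors to RNA polymerase II. Its head and middle modules contact the polymerase, its tail receives many of the transcription factors, and a separable kinase module (CDK8 or CDK19, cyclin C, MED12 and MED13) controls its access to the polymerase. MED19 belongs to the middle module and lies near the place where the kinase module docks.

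Depth was high: total counts were 90.36 to 156.5 M per knockout library and 112.5 to 196.7 M per control library. Reads of mitochondrial genes took 1.53 to 1.69% of the counts in knockout libraries and 1.15 to 1.23% in control libraries. The summed level of 12 melanoma marker genes was 1186 to 1466 CPM (read counts scaled to the size of each library) in knockout libraries and 1775 to 1928 CPM in control libraries, with PMEL and TYR, genes of pigment synthesis, under 1 CPM throughout, so that the cells carried a melanoma profile with little pigment gene expression. Summed markers of other cell types were low in knockout and control libraries for fibroblasts (11.06 to 16.08 and 9.328 to 9.659 CPM, with DPT at 0), blood cells (17.99 to 21.8 and 15.65 to 17.4 CPM, nearly all of it LYZ) and endothelium (4.506 to 6.083 and 9.139 to 9.562 CPM). Epithelial markers summed to 276.5 to 294.7 CPM in knockout and 228.2 to 230.5 CPM in control libraries, of which EPCAM, KRT5, KRT19 and CDH1 were under 1 CPM each.

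MED19 mRNA was lower in the knockout cells but still present. MED19 (ENSG00000156603, chromosome 11, 57703714-57712323 on GRCh38) had 12.2, 12.3 and 12.5 CPM with guide 1 and 14.3, 12.4 and 14.3 CPM with guide 2, against 27.4, 26.7 and 26.9 CPM in control cells. All 6 knockout libraries lay under all 3 control libraries. The log2 fold change was -1.05 ± 0.043 (± SE, here and below) over both guides, with an adjusted p of 6.9e-26 (edgeR's quasi-likelihood test with Benjamini-Hochberg adjustment, used for every adjusted p given here). It was -1.13 with guide 1 and -0.98 with guide 2, and the guides did not differ at the threshold (difference -0.14, adjusted p = 0.092). A transcript can carry a frameshift and still be counted, so the mRNA level does not measure the protein, which was not analysed here.

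The other subunits of Mediator moved little. At an adjusted p under 0.05, which 20.4% of the 27453 genes tested passed with a higher and 20.2% with a lower level, the head module had 1 of 8 members higher and 2 lower, and the middle module 1 of 10 higher and 2 lower, MED19 among them. The tail had 4 of 8 higher and 1 lower, and the kinase module 2 of 7 higher and 4 lower. MED23, a tail subunit that receives signals from the RAS pathway, was the member with the largest increase. It had 47.5, 47.1 and 47.3 CPM with guide 1 and 46.1, 45.9 and 45.1 CPM with guide 2, against 37.4, 36.7 and 37.0 CPM in control cells, without overlap, a log2 fold change of 0.33 ± 0.033. The tail subunits MED15 (0.26), MED16 (0.19) and MED29 (0.15) also rose, whereas MED27 fell (-0.16). Among kinase module genes, MED12L (-0.43), CCNC (-0.24), which encodes cyclin C, CDK8 (-0.19) and MED12 (-0.16) fell, while MED13 (0.17) and MED13L (0.16) rose. CDK19, the paralog of CDK8, had a log2 fold change of 0.04 and was not called. With libraries scaled by their total counts alone, 3 head subunits were higher and 1 lower, and the median of the middle module changed sign (0.04 in place of -0.01).

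Across all genes, 11133 (40.6%) differed between knockout and control cells at an adjusted p under 0.05, of which 5599 were higher and 5534 lower. With total counts alone as the scaling the split was 6923 higher and 4230 lower. A change of at least 2-fold as well was found for 976 genes that rose (3.56%) and 753 that fell (2.74%). The 6 knockout libraries did not overlap the 3 control libraries for 34.1% of genes.

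The genes named next had a mean log2 CPM of at least 2, no overlap between knockout and control libraries, and both guides called alike. Some genes given further below changed more but did not meet this rule. Among genes that met it, the 12 that rose most came from several functional classes. NAV3, a microtubule-associated protein of growing axons, showed the highest log2 fold change (3.90 ± 0.11), with 12.5, 13.2 and 12.8 CPM with guide 1 and 8.90, 8.38 and 7.50 CPM with guide 2, against 0.83, 0.486 and 0.786 CPM in control cells. DNER, a transmembrane protein with Notch-ligand-like repeats, had 20.0, 21.8 and 20.6 CPM with guide 1 and 15.5, 13.8 and 14.7 CPM with guide 2, against 1.59, 1.57 and 1.52 CPM in control cells (3.48 ± 0.073). Next to these came TFPI, the inhibitor of the tissue factor pathway of coagulation, with 15.4, 16.0 and 16.6 CPM with guide 1 and 10.7, 10.8 and 11.0 CPM with guide 2, against 1.64, 1.83 and 1.65 CPM in control cells. For all 3 genes the knockout libraries stood far above the control libraries, and guide 1 gave the higher level. SLC14A1, a urea transporter, had 52.3, 52.6 and 52.8 CPM with guide 1 and 47.2, 45.3 and 46.5 CPM with guide 2, against 7.21, 6.82 and 6.88 CPM in control cells. IL11, a cytokine of the interleukin 6 family, had 46.3, 47.4 and 47.0 CPM with guide 1 and 43.9, 43.3 and 42.9 CPM with guide 2, against 7.57, 7.84 and 7.18 CPM in control cells. STC1, the secreted glycoprotein stanniocalcin, had 76.4, 77.6 and 79.9 CPM with guide 1 and 62.4, 62.4 and 63.8 CPM with guide 2, against 14.2, 15.2 and 14.9 CPM in control cells. The levels of SLC14A1, IL11 and STC1 were thus several-fold higher with each guide, at log2 fold changes of 2.83, 2.58 and 2.24. CLU, the extracellular chaperone clusterin, rose by 2.46, the Wnt ligand gene WNT9A by 2.45, the immune cell adaptor gene SH2D1B by 2.19 and the histone gene H4C9 by 2.19 on the log2 scale. H2BC12L (2.40) has near-identical histone copies, and the mitochondrial transfer RNA gene MT-TS1 (3.10 ± 0.50) belongs to a class that poly(A) libraries are not designed to count.

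By the same rule, the 12 genes that fell most included several of the cell surface and the matrix around it. CEMIP, which takes part in the breakdown of hyaluronan, had 46.2, 49.2 and 44.6 CPM with guide 1 and 74.8, 83.9 and 86.7 CPM with guide 2, against 347, 364 and 371 CPM in control cells (-2.55 ± 0.052). HAPLN1, which links hyaluronan to proteoglycans, had 25.6, 28.4 and 25.8 CPM with guide 1 and 55.8, 64.6 and 61.5 CPM with guide 2, against 275, 275 and 272 CPM in control cells (-2.77 ± 0.046). Both genes of hyaluronan handling were lowest with guide 1 and intermediate with guide 2. A2M, the protease inhibitor alpha-2-macroglobulin, had 13.5, 13.5 and 11.8 CPM with guide 1 and 12.8, 13.7 and 12.5 CPM with guide 2, against 64.3, 70.2 and 69.5 CPM in control cells (-2.39 ± 0.076), with near-equal levels for both guides. ITGA9, an integrin that binds tenascin among other ligands, had 6.41, 7.28 and 7.06 CPM with guide 1 and 10.1, 12.4 and 13.6 CPM with guide 2, against 42.9, 44.4 and 50.4 CPM in control cells (-2.33 ± 0.091). Log2 fold changes of the atypical cadherin gene FAT3 (-2.46), the matrix protein gene HMCN1 (-2.27), the activin inhibitor gene FST (-2.95), the retinoid X receptor gene RXRG (-2.64), FDCSP (-2.53) and TMEM178B (-2.24) were also among the lowest 12, as was FXYD3 (-2.49), of whose exons 40.7% overlap another gene on the same strand. RN7SL2, the RNA of the signal recognition particle, fell by 2.94, but its control libraries ranged widely (45.4, 38.1 and 16.1 CPM) and it has near-identical copies.

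**Figure D1:**
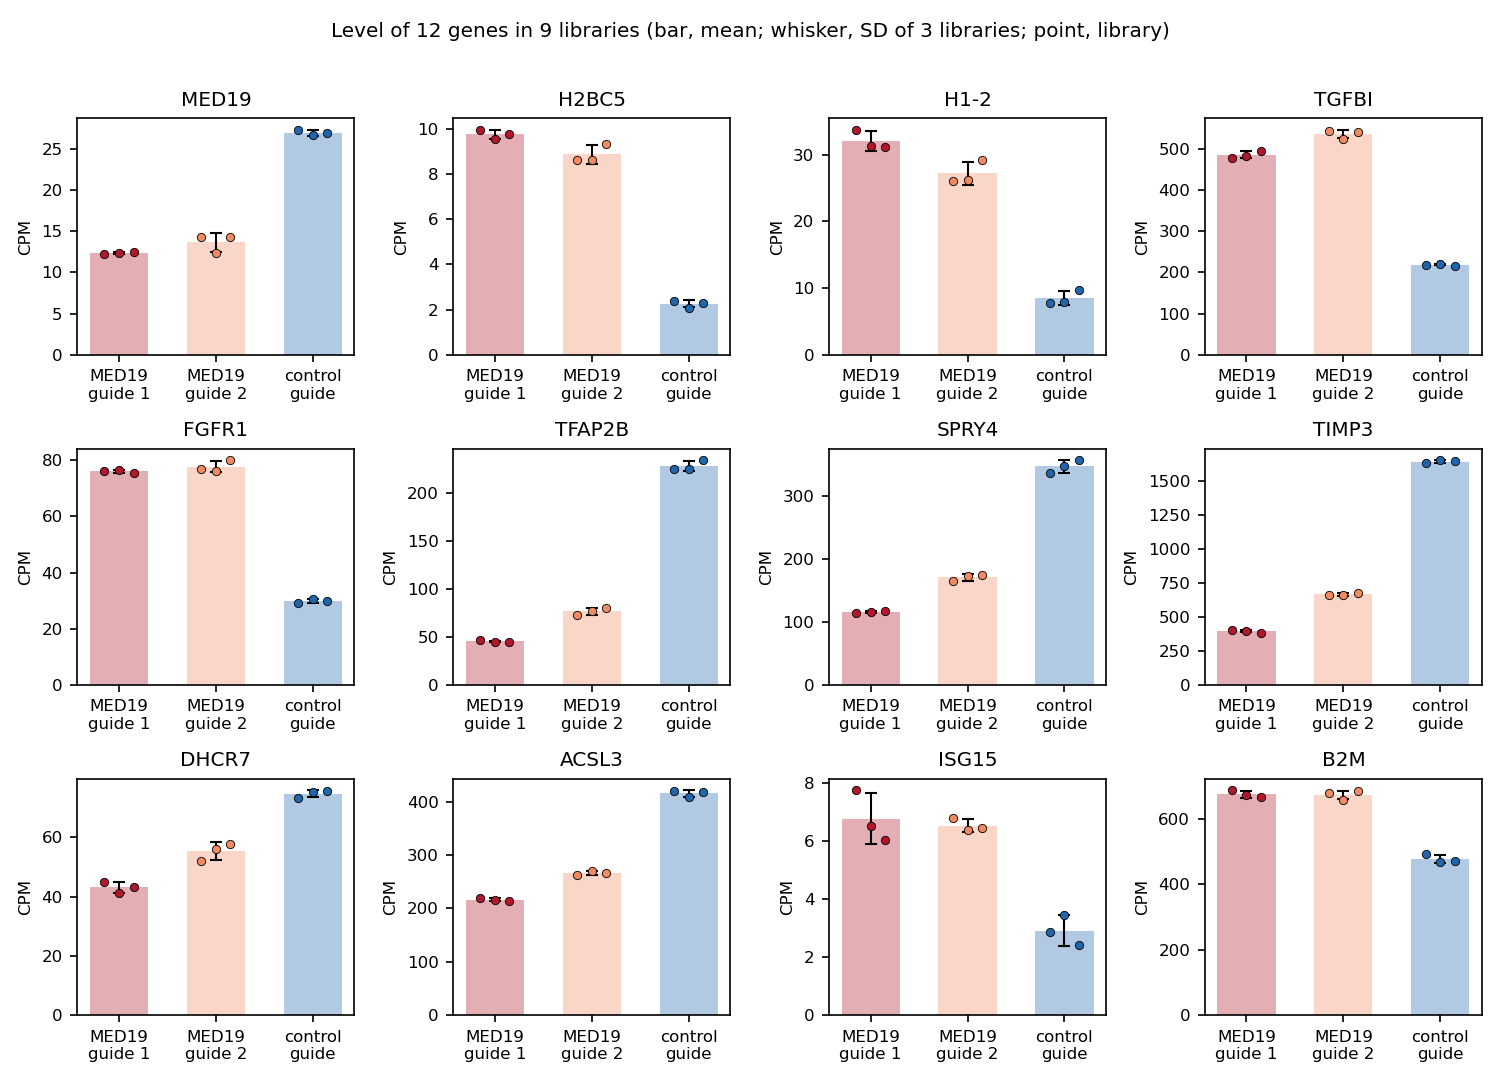
CPM of 12 genes in the 3 libraries of each MED19 guide (left and middle bars) and the 3 control libraries (right bars), with bars at the mean and whisker at 1 SD. MED19 itself stood at 12.2 to 14.3 CPM in knockout and 26.7 to 27.4 CPM in control libraries, and none of the 12 genes overlapped between knockout and control.

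The largest median rise of any list was in the genes of the replication-dependent histones, the core and linker histones that package newly made DNA. Their mRNAs normally end in a stem-loop without a poly(A) tail, so a poly(A) library counts only the copies that were captured all the same, and more transcription and more polyadenylated copies cannot be told apart in these data. Of 21 genes listed, 2 were not matched to the table, H2AC4 was too low to test, and 18 were tested: 15 rose, each at least 2-fold, against 3.56% of all genes, and none fell. The median log2 fold change over the 18 was 1.56, beside 0.0018 over all genes. H2BC11, a histone H2B gene, had 4.58, 5.37 and 5.93 CPM with guide 1 and 4.23, 4.52 and 4.27 CPM with guide 2, against 0.762, 0.823 and 0.853 CPM in control cells (2.55 ± 0.12). H2BC5, another H2B gene, had 9.97, 9.55 and 9.78 CPM with guide 1 and 8.64, 8.64 and 9.35 CPM with guide 2, against 2.38, 2.09 and 2.29 CPM in control cells (2.05 ± 0.071). H1-2, a linker histone gene, had 33.7, 31.2 and 31.2 CPM with guide 1 and 26.1, 26.3 and 29.1 CPM with guide 2, against 7.78, 7.93 and 9.64 CPM in control cells (1.79 ± 0.052). In each case the lowest knockout library was at least 2-fold above the highest control library. H4C9 (2.19 ± 0.071), H4C8 (1.99) and H2AC11 (1.98) followed, and H2BC8 and H1-4 rose by 1.74 and 1.64. The remaining tested members were not called: H4C3 at 0.30, H1-5 at 0.89 and H2BC3 at 1.48. Guide 1 gave a higher level than guide 2 for 3 members, beside 4.74% of all genes, with H4C9 among them (difference 0.26, adjusted p = 0.0072). Over the same libraries the cell cycle genes did not rise with the histones, as the growth-related lists below show.

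The promoters of these genes are shown because members of a gene family clustered on chromosome 6 moved together. CCAAT boxes, the binding motif of the factor NF-Y, are a feature of histone promoters. Within the 250 bases before the start, CCAAT on either strand was found in 18 of 20 histone genes with a RefSeq promoter entry (90.0%) and in 37.0% of all 27305 genes with an entry. The 20 include genes whose expression was not tested here. Among other lists, cell cycle genes had the motif in 15 of 18 promoters (83.3%) and genes of the invasive state in 1 of 8 (12.5%). Whether the motif goes with the direction of change was not tested. The windows of H2BC5 (GRCh38.p14, chr6:26157871-26158120, plus strand) and H2BC11 (chr6:27132796-27133045, minus strand) held 4 such boxes each, given here 5' to 3' with CCAAT, or ATTGG where the box lies on the other strand, in capitals.
H2BC5: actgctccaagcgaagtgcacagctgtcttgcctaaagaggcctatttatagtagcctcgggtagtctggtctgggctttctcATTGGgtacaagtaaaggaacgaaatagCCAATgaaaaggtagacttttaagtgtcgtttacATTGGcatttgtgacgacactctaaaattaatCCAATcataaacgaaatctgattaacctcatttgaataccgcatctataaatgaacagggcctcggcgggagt
H2BC11: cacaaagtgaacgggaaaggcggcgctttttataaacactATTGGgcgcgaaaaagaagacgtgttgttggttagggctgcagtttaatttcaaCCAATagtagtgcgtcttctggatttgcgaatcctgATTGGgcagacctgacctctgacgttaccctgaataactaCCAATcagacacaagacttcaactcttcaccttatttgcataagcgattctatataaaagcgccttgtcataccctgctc
In H2BC5 the boxes began 167, 139, 105 and 73 bases before the start, and in H2BC11 210, 156, 120 and 80 bases before it, so the boxes of both genes lay on alternating strands at similar distances. GGGCGG, the core of the GC box, was in contrast present in 4 of the 20 histone promoters (20.0%), against 46.2% of all promoters. A motif match is a description of the sequence and not a measurement of binding.

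**Figure D2:**
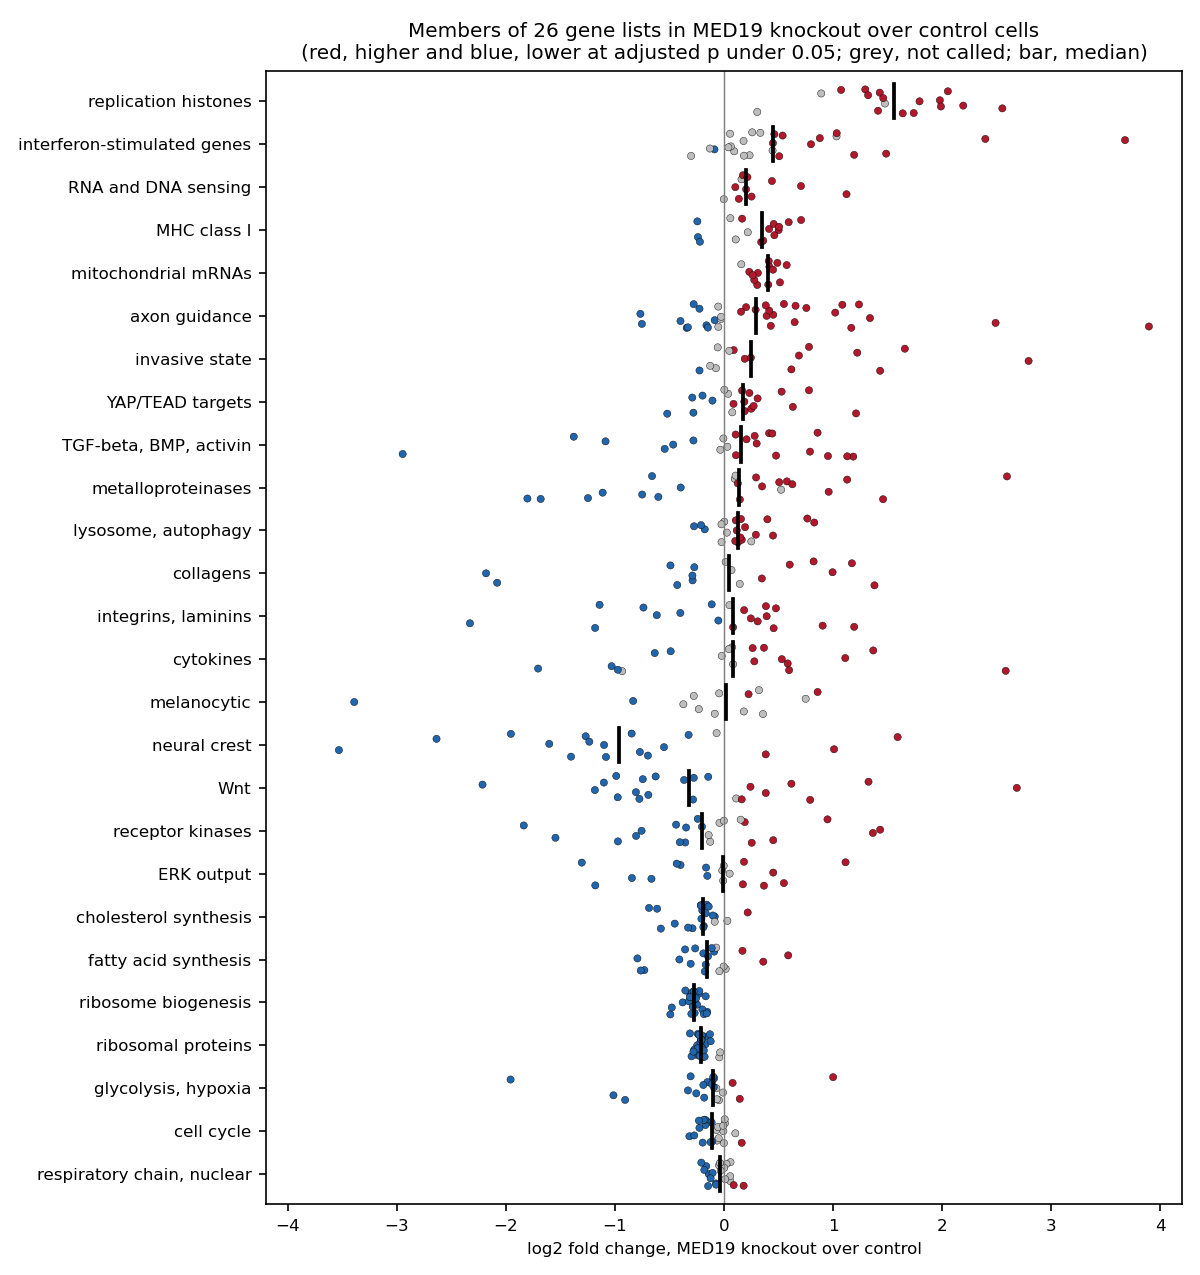
Log2 fold change (MED19 knockout over control) of the members of 26 gene lists, 1 row per list, with red and blue points for members higher and lower at an adjusted p under 0.05 and a black bar at the median over all tested members. Members under 30 counts in the knockout or control libraries are not drawn. The histone list has its median at 1.56 and the neural crest list at -0.96.

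Genes of cholesterol synthesis fell almost throughout, by small amounts. Cells make cholesterol from acetyl-CoA through mevalonate and squalene, under control of the factor SREBP2 (SREBF2), while SREBP1 (SREBF1) drives fatty acid genes. Of 20 enzymes, 17 fell and 1 rose, beside 20.2 and 20.4% of all genes. The median log2 fold change was -0.19. DHCR7, which carries out the last step of the pathway, had 44.9, 41.2 and 43.3 CPM with guide 1 and 51.9, 56.2 and 57.8 CPM with guide 2, against 73.3, 75.3 and 75.6 CPM in control cells (-0.61 ± 0.035). SQLE, which oxidises squalene, had 46.6, 42.4 and 42.7 CPM with guide 1 and 45.5, 46.8 and 47.5 CPM with guide 2, against 56.5, 56.7 and 57.3 CPM in control cells (-0.33 ± 0.033). Every knockout library was under every control library for these enzymes, and neither reached a 2-fold change. CYP51A1, the lanosterol demethylase, fell by 0.69, but 79.4% of its exons overlap another gene on the same strand. Among the other enzymes, IDI1 (-0.29), an isomerase of isoprenoid units, fell more than MVK (-0.21), HMGCS1 (-0.21), LSS (-0.20), MVD (-0.19), FDFT1 (-0.19) and FDPS (-0.16). MSMO1, SC5D, HSD17B7, EBP and ACAT2 fell by 0.09 to 0.21. The exception was TM7SF2, a sterol reductase, which rose (0.22), and NSDHL (-0.09) was not called, nor was PMVK. With total counts alone as the scaling, 14 fell and 1 rose, and the small changes were not equally strong with each guide. With guide 2 alone ACAT2 (-0.02), EBP (-0.03) and HSD17B7 (-0.12) were not called, and with guide 1 alone TM7SF2 (0.13) was not called. EBP also missed the threshold with the 6 knockout libraries as 1 group (-0.10). Single libraries mattered too: the call was lost for ACAT2 without control replicate 1 (-0.07), control replicate 3 (-0.09) or guide 2 replicate 3 (-0.07), for EBP without control replicate 1 (-0.09) or guide 1 replicate 1 (-0.09), for HSD17B7 without control replicate 2 (-0.13) or guide 2 replicate 2 (-0.11), and for TM7SF2 without control replicate 1 (0.17).

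The regulators of the pathway were divided. Of 16 regulators tested, 8 fell and 4 rose, beside 20.2 and 20.4% of all genes. INSIG1, the sterol-responsive brake on SREBP processing and itself an SREBP target, had 29.6, 26.8 and 29.3 CPM with guide 1 and 36.7, 38.3 and 40.1 CPM with guide 2, against 53.3, 55.3 and 56.1 CPM in control cells (-0.73 ± 0.042). SREBF1 (-0.45) and SREBF2 (-0.41) fell as well, as did the cholesterol exporter gene ABCA1 (-0.28), the sterol carrier gene STARD4 (-0.23), MYLIP (-0.21), a ubiquitin ligase, and NR1H3 (-0.16), the sterol receptor LXR alpha. Among those that rose were INSIG2 (0.34), a second brake that is not induced by SREBP, NPC1 (0.19), which exports cholesterol from lysosomes, NR1H2 (0.11) and SOAT1 (0.07), which esterifies cholesterol. SCAP, the escort of SREBP, was not called. The median of this list was -0.03, and changed sign with total-count scaling (0.02), and some of the small changes lost their call with guide 2 alone, NR1H3 (-0.15), NR1H2 (0.05) and SOAT1 (0.05) among them, or without single libraries. Single libraries mattered for NR1H3 without control replicate 3 (-0.09), guide 1 replicate 3 (-0.13) or guide 2 replicate 2 (-0.14), for SOAT1 without control replicate 2 or 3 (0.05 and 0.06), and for NR1H2 without control replicate 1 (0.09).

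In fatty acid synthesis 13 of 20 genes fell and 3 rose, beside 20.2 and 20.4% of all genes. ACSL3, which activates fatty acids for lipid droplets and phospholipids, had 219.6, 215 and 215 CPM with guide 1 and 262, 269.6 and 266 CPM with guide 2, against 419.7, 409 and 419 CPM in control cells (-0.79 ± 0.021). SCD, the main stearoyl-CoA desaturase, had 424, 406 and 423 CPM with guide 1 and 529.6, 548 and 554 CPM with guide 2, against 791, 787 and 849.6 CPM in control cells (-0.76 ± 0.026). These mRNAs stood lowest with guide 1 and in between with guide 2, and the difference between guides was itself past the threshold for ACSL3 (-0.30, adjusted p = 2.1e-12), SCD (-0.38, adjusted p = 5.8e-13), INSIG1 (-0.42, adjusted p = 2.3e-08) and DHCR7 (-0.36, adjusted p = 2.1e-08). ACACA, which makes malonyl-CoA, fell by 0.41, the elongase gene ELOVL5 by 0.36 and the malic enzyme gene ME1 by 0.31, with FASN at -0.73. Smaller decreases were found for MID1IP1 (-0.26), FADS1 (-0.19), ACLY (-0.18), LPIN1 (-0.17), FADS2 (-0.15), GPAM (-0.11) and ACSL1 (-0.09). The other desaturase gene, SCD5, moved against SCD, with 18.0, 16.9 and 17.2 CPM with guide 1 and 14.9, 16.4 and 15.6 CPM with guide 2, against 11.1, 10.5 and 11.3 CPM in control cells (0.59 ± 0.042). ELOVL1, which elongates saturated fatty acids, rose by 0.36, and ACACB, the mitochondrial form of acetyl-CoA carboxylase, by 0.17. With guide 2 alone FADS2 (-0.02) and GPAM (-0.09) were not called, and with guide 1 alone ACSL1 (-0.08) was not. The calls of ACSL1 without control replicate 2 (-0.09) and of GPAM without control replicate 3 (-0.08) were also lost.

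**Figure D3:**
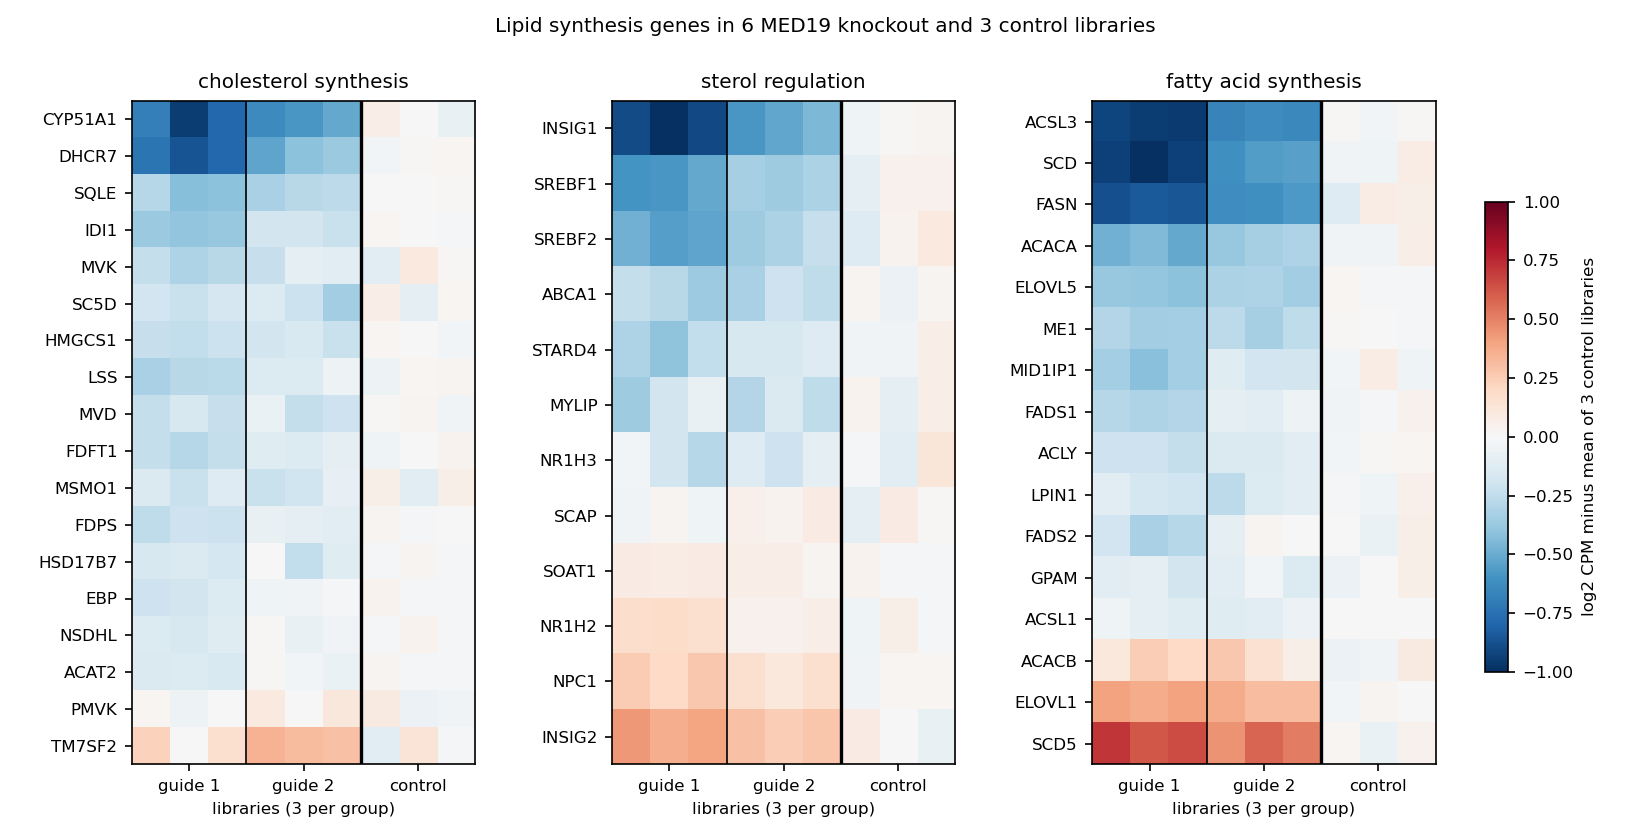
Level of each lipid gene (log2 CPM minus the mean of the 3 control libraries) in 3 libraries of guide 1, 3 of guide 2 and 3 of control, left to right, with genes sorted by fold change. Guide 1 columns are the darkest for most genes that fell, and SCD5, ELOVL1 and INSIG2 stand out as higher. Some genes of the lists are not drawn. NPC1L1, with under 60 counts in all 6 knockout libraries, is not drawn.

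The promoters of DHCR7 (chr11:71448394-71448643, minus strand) and SCD (chr10:100346983-100347232, plus strand) are shown for the same motif, since NF-Y boxes stand beside SREBP sites in many lipid promoters.
DHCR7: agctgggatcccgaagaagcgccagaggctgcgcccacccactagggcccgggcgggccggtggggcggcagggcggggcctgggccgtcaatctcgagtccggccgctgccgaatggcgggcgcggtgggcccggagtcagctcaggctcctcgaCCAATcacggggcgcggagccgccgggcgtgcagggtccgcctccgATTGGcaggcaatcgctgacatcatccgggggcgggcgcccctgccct
SCD: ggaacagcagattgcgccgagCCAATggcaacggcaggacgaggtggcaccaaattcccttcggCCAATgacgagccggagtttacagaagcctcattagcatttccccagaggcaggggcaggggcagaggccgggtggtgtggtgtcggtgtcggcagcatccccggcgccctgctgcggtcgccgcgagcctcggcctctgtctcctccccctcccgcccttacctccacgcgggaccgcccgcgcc
Each window held 2 CCAAT boxes, 94 and 48 bases before the start in DHCR7 and 229 and 186 bases before it in SCD. CCAAT was present in 13 of 15 cholesterol synthesis promoters with an entry (86.7%) and in 11 of 19 fatty acid synthesis promoters (57.9%), against 37.0% of all. The sterol regulatory element in the form TCACNCCAC was found in none of the 15 cholesterol synthesis promoters, in 2 of 19 fatty acid synthesis promoters (10.5%) and in 1 of 15 promoters of sterol regulators (6.67%), against 1.09% of all promoters.

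Neural crest genes, which mark the Schwann-cell-like and melanocyte precursor state of melanoma, had the lowest median of the lists of protein-coding genes. Of 18, 14 fell, 9 of them at least 2-fold, and 3 rose, 2 of them at least 2-fold, beside 2.74% and 3.56% of all genes. The median was -0.96. TFAP2B, a transcription factor of neural crest cells, had 46.3, 45.2 and 45.0 CPM with guide 1 and 72.6, 77.3 and 80.0 CPM with guide 2, against 225, 226 and 235 CPM in control cells (-1.95 ± 0.039). S100B, a calcium-binding protein of glia and melanoma, had 18.3, 17.6 and 19.0 CPM with guide 1 and 23.4, 26.0 and 26.8 CPM with guide 2, against 50.4, 51.4 and 50.7 CPM in control cells (-1.24 ± 0.048). Neither gene overlapped between groups, and guide 2 stood between guide 1 and control for each. SOX8, a paralog of SOX10 at a low level in control cells (1.94, 2.67 and 2.46 CPM), fell by 3.53. CDH19 (-1.10) and FOXD3 (-1.08) fell by about equal amounts, and SOX10 and ERBB3 by 0.70 and 1.27. TFAP2A, the paralog of TFAP2B, moved the other way, with 22.6, 23.7 and 21.7 CPM with guide 1 and 17.6, 18.4 and 17.6 CPM with guide 2, against 9.53, 10.6 and 9.81 CPM in control cells (1.01 ± 0.042). The growth cone gene GAP43 (1.59) and the adhesion molecule gene L1CAM (0.38) also rose, and MIA (-0.07) was not called. Fewer cells in a given state and less of its mRNA per cell cannot be told apart in bulk RNA.

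The melanocytic list gave no such shift, with 2 of 15 genes higher and 2 lower, beside 20.4 and 20.2% of all genes. DCT, a pigment enzyme, had 0.115, 0.11 and 0.0597 CPM with guide 1 and 0.474, 0.431 and 0.745 CPM with guide 2, against 2.64, 2.39 and 2.13 CPM in control cells (-3.39 ± 0.23). It was almost lost with guide 1 and reduced with guide 2. MITF, the melanocyte master regulator, fell by 0.83, whereas RAB27A (0.86), which moves melanosomes, and the melanocortin receptor gene MC1R (0.23) rose. MC1R was not called with guide 2 alone (0.20) or without control replicate 2 (0.20). Of 15 genes of the invasive state 10 rose and 1, TEAD4, fell (-0.22). TGFBI, a matrix protein induced by TGF-beta, had 479, 484 and 496 CPM with guide 1 and 543, 525 and 543 CPM with guide 2, against 219, 221 and 217 CPM in control cells (1.22 ± 0.03). SOX9, a transcription factor, had 5.36, 3.59 and 4.73 CPM with guide 1 and 3.72, 3.94 and 3.91 CPM with guide 2, against 1.28, 1.36 and 1.34 CPM in control cells (1.66 ± 0.095). Both were higher in every knockout library. EGFR rose by 1.43, the ectonucleotidase gene NT5E by 0.78 and the receptor gene AXL by 0.19. FOSL1 (0.05) and ZEB1 (-0.06), which encode transcription factors, were not called.

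Feedback and output genes of the ERK pathway moved both ways, in cells that had received no drug. Of 18 genes 8 fell and 6 rose, beside 20.2 and 20.4% of all genes. The median was -0.01, and changed sign with total-count scaling (0.04) and with guide 2 alone (0.02). SPRY4, a Sprouty inhibitor induced by ERK, had 114, 115 and 118 CPM with guide 1 and 164, 173 and 175 CPM with guide 2, against 336, 347 and 357 CPM in control cells (-1.30 ± 0.039). MYC had 9.71, 9.88 and 9.86 CPM with guide 1 and 10.0, 11.1 and 11.1 CPM with guide 2, against 23.4, 22.7 and 23.7 CPM in control cells (-1.18 ± 0.072). Control libraries were about 2-fold or more above the knockout libraries for both genes. SPRY2 (-0.84) and SPRY1 (-0.67) fell too, while SPRED3 (1.11), an inhibitor of RAF activation, rose. DUSP6, the ERK phosphatase most used as a readout of the pathway, was at -0.0023 ± 0.033 and CCND1, which encodes cyclin D1, at 0.05 ± 0.024, and neither was called. Immediate early genes were split, with 8 of 16 higher and 5 lower. NR4A1 (-1.22), EGR3 (-0.82) and EGR1 (-0.75) fell, whereas ATF3 (1.06) and JUN (0.77) rose.

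Among 25 receptor tyrosine kinase genes 7 rose and 12 fell, beside 20.4 and 20.2% of all genes. FGFR1, a fibroblast growth factor receptor, had 76.1, 76.5 and 75.6 CPM with guide 1 and 76.8, 76.3 and 80.1 CPM with guide 2, against 29.0, 30.6 and 29.9 CPM in control cells (1.37 ± 0.04). MET, the receptor of hepatocyte growth factor, had 301, 294 and 294 CPM with guide 1 and 261, 259 and 252 CPM with guide 2, against 143, 142 and 144 CPM in control cells (0.95 ± 0.023). For FGFR1 the guides gave near-equal levels, and for MET guide 1 gave the higher one. Of the 25 genes, 3 rose and 3 fell by at least 2-fold, beside 3.56 and 2.74% of all genes. The 3 that fell by this much are not named in this paragraph. MERTK, a receptor for apoptotic cells, fell by 0.97, short of 2-fold. ALK (-0.76), IGF1R (-0.44) and TYRO3 (-0.41) fell too.

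The Wnt list had 8 of 24 genes higher and 14 lower, beside 20.4 and 20.2% of all genes, with a median of -0.33. AXIN2, a feedback inhibitor of beta-catenin, had 4.04, 3.83 and 3.80 CPM with guide 1 and 3.38, 3.89 and 3.94 CPM with guide 2, against 0.576, 0.517 and 0.675 CPM in control cells (2.69 ± 0.17), and 25.2% of its exons overlap another gene on the same strand. NKD1, another feedback inhibitor, had 8.07, 7.31 and 7.32 CPM with guide 1 and 7.19, 6.86 and 7.34 CPM with guide 2, against 2.87, 3.05 and 2.86 CPM in control cells (1.33 ± 0.12). These inhibitors rose, while the receptor genes FZD7 (-0.99) and FZD4 (-0.97) and the nuclear factor genes TCF7L1 (-0.81) and LEF1 (-0.69) fell. In the TGF-beta, BMP and activin list 14 of 24 rose and 6 fell. BMP4 (1.19), a ligand, and ID2 (1.13), a target of BMP signals, rose. TGFBR2, the type II receptor of TGF-beta, had 119.8, 123 and 122 CPM with guide 1 and 105, 101 and 101 CPM with guide 2, against 57.2, 57.8 and 57.8 CPM in control cells (0.95 ± 0.029). BMP7 (-1.38) and ID4 (-1.09) fell, so that ligands and targets of the BMP branch moved both ways. Of 20 YAP/TEAD targets 12 rose and 5 fell, led by F3 (1.21), the coagulation factor that TFPI inhibits. The guides differed for 13 of these 20, 12 of them higher with guide 1, where 4.74% of all genes were higher and 5.43% lower with guide 1.

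Matrix and protease genes changed in both directions. TIMP3, a matrix-bound inhibitor of metalloproteinases, had 401, 398 and 383 CPM with guide 1 and 657, 659.5 and 676 CPM with guide 2, against 1626, 1651 and 1644 CPM in control cells (-1.68 ± 0.025). Knockout libraries lay far under control libraries, and guide 1 libraries under guide 2 libraries. Of 22 genes of metalloproteinases and their inhibitors 11 rose and 8 fell, beside 20.4 and 20.2% of all genes. The collagenase gene MMP1 had 11.9, 11.1 and 12.6 CPM with guide 1 and 7.97, 8.14 and 7.51 CPM with guide 2, against 3.61, 3.56 and 3.40 CPM in control cells (1.46 ± 0.078), and the gelatinase gene MMP2 had 326, 325 and 335 CPM with guide 1 and 337, 325 and 343 CPM with guide 2, against 165, 174 and 173 CPM in control cells (0.96 ± 0.026). MMP3 (2.60) and ADAM19 (1.13) rose as well, whereas MMP8 (-1.80), MMP15 (-1.25) and MMP17 (-1.11) fell. Collagens had 6 of 16 higher and 7 lower. COL5A1, a chain of fibrillar collagen V, had 90.1, 96.9 and 94.8 CPM with guide 1 and 80.3, 74.9 and 80.5 CPM with guide 2, against 37.7, 38.0 and 38.5 CPM in control cells (1.17 ± 0.032), and COL13A1 (1.38) and COL1A1 (1.00) rose too. COL11A1 (-2.18) and COL5A2 (-0.43), the partner chain of COL5A1, fell. Of 19 integrin and laminin genes 10 rose and 8 fell. ITGB3, the beta chain of the vitronectin receptor, had 76.3, 79.0 and 76.8 CPM with guide 1 and 95.2, 99.9 and 106 CPM with guide 2, against 201, 195 and 204 CPM in control cells (-1.18 ± 0.04). The laminin gene LAMA4 (-1.14) fell with ITGA9, and ITGA5, the fibronectin receptor chain, rose (0.90).

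Axon guidance genes leaned upward, with 19 of 33 higher and 10 lower. NRP1, a co-receptor of semaphorins and VEGF, had 207, 204 and 206 CPM with guide 1 and 220.0, 212 and 219 CPM with guide 2, against 90.5, 90.2 and 88.1 CPM in control cells (1.24 ± 0.028), with near-equal levels for both guides. The ephrin receptor genes EPHA7 (1.34) and EPHA5 (2.49), the plexin gene PLXNA2 (1.09) and NAV2 (1.02), a paralog of NAV3, rose. SEMA3D (-0.77) and SLIT2 (-0.75), secreted guidance cues, fell. Of 26 neuronal genes that are classical targets of the repressor REST, 7 rose and 6 fell, near the 20.4 and 20.2% of all genes, with CHGB at 1.26 and SNAP25 at 0.96 among those that rose with DNER, and STMN3 at -0.86 among those that fell. Of 21 cytokine genes 9 rose, with IL11 (2.58) and CCL2 (1.37) as leading members, and 5 fell, with CXCL1 (-1.71), a chemokine that attracts neutrophils, as the lowest.

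Interferon-stimulated genes rose moderately and from low levels. Of 25 genes 11 rose and 1 fell, beside 20.4 and 20.2% of all genes, with a median of 0.45. ISG15, an interferon-induced ubiquitin-like protein, had 7.75, 6.53 and 6.03 CPM with guide 1 and 6.78, 6.37 and 6.43 CPM with guide 2, against 2.86, 3.45 and 2.40 CPM in control cells (1.19 ± 0.21, adjusted p = 4.0e-06). OAS2, an RNA-sensing synthetase, had 21.1, 19.8 and 16.8 CPM with guide 1 and 17.7, 14.1 and 14.5 CPM with guide 2, against 7.79, 8.29 and 8.94 CPM in control cells (1.03 ± 0.16). No knockout library overlapped a control library for either gene. IFI44L had 2.22, 1.81 and 1.43 CPM with guide 1 and 1.03, 1.07 and 0.911 CPM with guide 2, against 0.635, 0.461 and 0.401 CPM in control cells (1.49 ± 0.39, adjusted p = 0.0013), and guide 2 alone did not pass the threshold (adjusted p = 0.082). OASL (3.68), which promotes RNA sensing, RSAD2 (2.40 ± 0.65) and IRF7 (0.88) rose, whereas MX1 (0.33) and OAS1 (-0.13) were not called. RSAD2, at only 0.166, 0.0935 and 0.212 CPM in control cells, missed the threshold with guide 2 alone (1.99, adjusted p = 0.051). MX2 fell by 0.09, a call lost with guide 2 alone (-0.08), and without control replicate 1 or 2 (-0.08 each), guide 1 replicate 3 (-0.07) or guide 2 replicate 1 (-0.09) or 2 (-0.08). With guide 1 alone 14 of the 25 were higher, 6 of them at least 2-fold (median 0.53), beside 20.2 and 4.62% of all genes. With guide 2 alone 8 were higher, 2 of them at least 2-fold (median 0.22), beside 17.4 and 2.83% of all genes. In the direct test none of the 25 differed between guides. The spread behind these tests came from all 42 libraries, and some of these genes varied widely between MED12 knockout libraries. IFIT1 averaged 369 ± 111.5 and 357 ± 137 CPM with the MED12 guides (SD, n = 3 each). A missing call here thus does not show equal levels. The knockout libraries did not overlap the control libraries for 15 of the 25, beside 34.1% of all genes. A model with the replicate number as a block gave 14 higher and 1 lower.

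Sensors upstream of interferon rose in 9 of 13 tested genes and fell in none, beside 20.4 and 20.2% of all genes. RIGI, the receptor of short double-stranded RNA, had 17.1, 15.3 and 15.5 CPM with guide 1 and 12.8, 12.7 and 13.1 CPM with guide 2, against 6.48, 6.92 and 6.33 CPM in control cells (1.12 ± 0.16). IRF1 (0.71) and TLR3 (0.44) rose, and the adaptor genes MAVS (0.17) and STING1 (0.21) rose slightly. STING1 was not called with guide 2 alone (0.09). IFNB1, the interferon beta gene, had 0 counts over the 6 knockout libraries and 1 count over the 3 control libraries, and CGAS, the DNA sensor, had 18 and 7 counts, so both were too low to test. Antigen presentation by MHC class I rose in 10 of 16 genes and fell in 3. B2M, the light chain of class I molecules, had 688, 672 and 668 CPM with guide 1 and 678, 659 and 684 CPM with guide 2, against 491, 469 and 471 CPM in control cells (0.50 ± 0.043). NLRC5, the activator of class I transcription, rose by 0.71, the peptidase gene ERAP2 by 0.59, and the immunoproteasome gene PSMB9 by 0.51. HLA-E (-0.24) and the chaperone genes CALR (-0.24) and PDIA3 (-0.22) fell. HLA genes resemble each other closely, so their counts are uncertain.

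The promoter of ISG15 (chr1:1013247-1013496, plus strand) is shown for the interferon element, made of a pair of GAAA repeats with 2 bases of any kind between them and printed in capitals.
ISG15: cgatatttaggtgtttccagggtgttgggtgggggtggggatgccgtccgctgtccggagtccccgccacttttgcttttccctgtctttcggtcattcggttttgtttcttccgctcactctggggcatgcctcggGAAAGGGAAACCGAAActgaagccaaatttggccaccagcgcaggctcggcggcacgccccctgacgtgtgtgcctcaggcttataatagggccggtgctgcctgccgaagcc
It held 2 overlapping matches, 113 and 107 bases before the start. The motif was present on either strand in 13 of 18 interferon-stimulated genes with an entry (72.2%) and in 6 of 12 class I genes (50.0%), against 3.71% of all promoters.

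Genes of ribosome production fell by small amounts. All 22 ribosome biogenesis genes fell, against 20.2% of all genes, with a median of -0.27, and all 22 also fell under each other scaling. FBL, the fibrillarin methyltransferase of the nucleolus, had 159, 161 and 159 CPM with guide 1 and 185, 185 and 179 CPM with guide 2, against 255, 233 and 234 CPM in control cells (-0.49 ± 0.026). POLR1B, the second largest subunit of RNA polymerase I, had 123, 124 and 119.7 CPM with guide 1 and 131, 129 and 125 CPM with guide 2, against 168, 175 and 179.5 CPM in control cells (-0.48 ± 0.026). No library overlapped between knockout and control for any of the 22, which held for 34.1% of all genes. Of 25 ribosomal protein genes 23 fell, with a median of -0.21 and RPL3 (-0.31) and RPS2 (-0.30) as the lowest. For 23 of the 25 the level was lower with guide 1 than with guide 2, beside 5.43% of all genes. Ribosomal protein genes have many processed pseudogenes, which could share their reads. Of 23 cell cycle genes 12 fell and 1 rose, with a median of -0.11. The replicative helicase genes MCM6 (-0.32) and MCM7 (-0.27) and the thymidylate synthase gene TYMS (-0.23) fell, and E2F1 rose (0.16), a call lost with guide 1 alone (0.04) and without control replicate 1 (0.14). In the stress-related lists, p53 targets had 7 of 19 higher, with PLK3 (0.75) and FAS (0.64) leading, and 7 lower. ATF4 and unfolded protein genes had 5 of 20 higher, near the 20.4% of all genes, and 9 lower, beside 20.2%. DDIT4, an inhibitor of mTORC1, was the lowest of them (-1.08). Heat shock genes had 3 of 14 higher and 8 lower, and 5 higher with total-count scaling.

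Glycolysis and hypoxia genes fell in 14 of 21 cases and rose in 3, beside 20.2 and 20.4% of all genes. With total-count scaling 9 fell. HK2, the hexokinase of many tumours, had 95.6, 93.8 and 92.7 CPM with guide 1 and 108, 108 and 109 CPM with guide 2, against 201, 204 and 207 CPM in control cells (-1.01 ± 0.028). PDK1 (-0.91), which keeps pyruvate out of the mitochondria, and the hypoxia marker CA9 (-1.96) fell, whereas SLC16A3 (1.00), the lactate exporter, rose. Of 13 mRNAs made in the mitochondria 12 rose, with a median of 0.41, led by MT-CO2 (0.57 ± 0.068), in libraries whose mitochondrial share was higher, as given above. The nuclear genes of the same respiratory chain did not move with them: 2 of 20 rose and 9 fell, and under total-count scaling 6 rose. Lysosome and autophagy genes rose in 13 of 21 cases and fell in 3. CTSB, the protease cathepsin B, had 319, 318 and 316 CPM with guide 1 and 330.2, 316 and 329 CPM with guide 2, against 179, 186 and 179 CPM in control cells (0.83 ± 0.026). GABARAPL1, a protein of the autophagosome membrane, rose by 0.76. In the retinoid list 7 of 16 rose and 7 fell. ALDH1A3, which makes retinoic acid, had 158, 156 and 155 CPM with guide 1 and 187, 189.7 and 189.9 CPM with guide 2, against 378, 381 and 389.7 CPM in control cells (-1.16 ± 0.025), and DHRS3, which reduces retinal, fell by 0.89. Of 9 small noncoding RNA genes tested 6 fell and none rose, 4 of them copies of the 7SL RNA.

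Guide 1 gave the larger change more often than guide 2. At an adjusted p under 0.05 and at least 2-fold, 1267 genes rose (4.62%) and 710 fell (2.59%) with guide 1. With guide 2, 778 rose (2.83%) and 633 fell (2.31%). Guide 2 libraries were less deep, at 90.36, 106.6 and 90.75 M counts, against 118.2, 114.2 and 156.5 M for guide 1. How far depth affects these numbers of genes was not tested. The guides were also compared directly, a difference that the control libraries enter only through the common fit. At the same adjusted p, 1302 genes were higher (4.74%) and 1492 lower (5.43%) with guide 1 than with guide 2. By at least 2-fold, 180 (0.656%) were higher and 37 (0.135%) lower. Of the 976 genes that rose over both guides, 209 were higher with guide 1, 5 were lower and 762 were not called between guides. Of the 753 that fell, 127 were lower with guide 1, 12 were higher and 614 were not called. MED19 mRNA was itself lower with guide 1 by 0.14 on the log2 scale, which missed the threshold as given above.

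Among genes whose guide libraries did not overlap and whose mean level reached 2 on the log2 CPM scale, the largest differences included 3 of the genes that fell most over both guides. RXRG (difference -1.29), HAPLN1 (-1.19) and FST (-1.01) were lower with guide 1, as were PKNOX2 (-0.98), a homeodomain factor, and MMP8 (-0.92). In the other direction stood AOX1 (1.22), aldehyde oxidase, ELAPOR1 (1.16), LAPTM5 (1.04), ILDR2 (1.00) and TMEM184A (0.94). AOX1 had 7.42, 6.49 and 6.55 CPM with guide 1 and 3.01, 2.66 and 3.13 CPM with guide 2, against 0.86, 1.13 and 1.03 CPM in control cells. Every guide 1 library was higher for AOX1 than every guide 2 library. By adjusted p, 11 of the 27453 genes tested were called in opposite directions by the guides. The widest apart was ALPP, an alkaline phosphatase gene, at 0.48 with guide 1 and -0.59 with guide 2, which has close paralogs. The 11 also included PKM, the pyruvate kinase of glycolysis, at -0.08 with guide 1 and 0.06 with guide 2, and CCN1, a YAP target, at 0.18 and -0.17. These 3 were chosen after their values were seen.

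**Figure D4:**
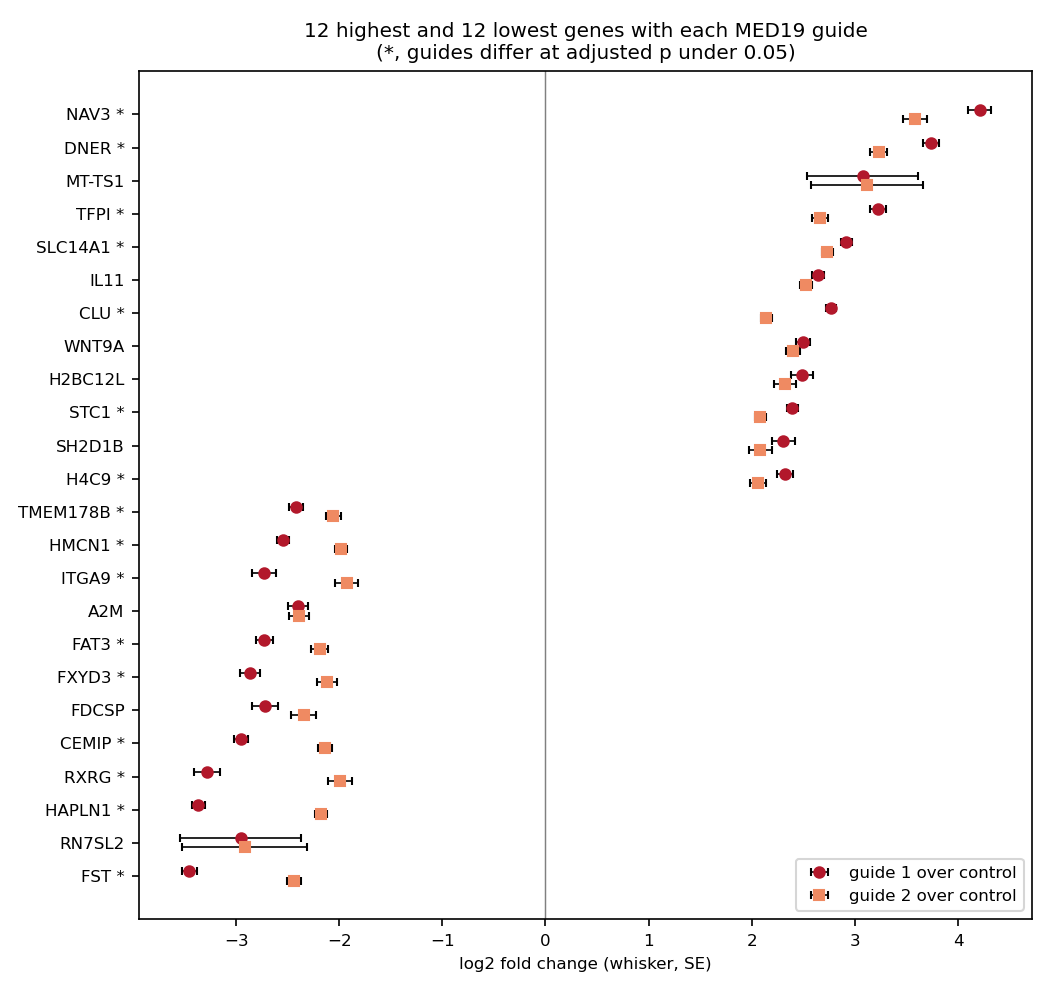
Log2 fold change over control with guide 1 (circles) and guide 2 (squares), with whiskers at 1 SE. A star marks genes whose guides differ at an adjusted p under 0.05. Drawn are the 12 highest and 12 lowest genes with a mean log2 CPM of at least 2, no overlap between knockout and control, and both guides called alike. The values run from NAV3 at 4.21 and 3.58 to FST at -3.45 and -2.44. All 24 genes lie on the same side of 0 with both guides because the rule that chose them required it.

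MED19 knockout cells were also set directly against MED23 and MED12 knockout cells in the same medium. The control libraries do not enter these differences, but they were part of the common fit that set the scaling and the spread. Against MED23 knockout, 506 genes were higher (1.84%) and 549 lower (2.0%) in MED19 knockout by at least 2-fold. Against MED12 knockout 777 were higher (2.83%) and 1763 lower (6.42%). At the adjusted p alone the shares were 17.5 and 16.1% against MED23 knockout and 22.9 and 23.8% against MED12 knockout.

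Neural crest genes were mostly higher in MED19 knockout than in either of the other knockouts. Against MED23 knockout 12 of 18 were higher and 3 lower (median 0.55), and against MED12 knockout 14 were higher and 3 lower (median 1.36). Each against control, the medians were -0.96 in MED19, -1.66 in MED23 and -2.48 in MED12 knockout, comparisons that share the control libraries. SOX10 was higher by 0.73 against MED23 and by 1.98 against MED12 knockout, and ERBB3 by 2.68 against MED12 knockout. Interferon-stimulated genes were the sharpest contrast with MED12 knockout: all 25 were lower in MED19 knockout (median -3.44). IFI44L averaged 1.82 ± 0.392 and 1.00 ± 0.0843 CPM with the MED19 guides, against 118 ± 38.5 and 114 ± 37.8 CPM with the MED12 guides (SD, n = 3 each). RSAD2 (-7.05), IFIT1 (-5.20) and MX1 (-4.73) were among the lowest 5 as well. Against MED23 knockout, 7 of the 25 were higher and none lower, beside 17.5 and 16.1% of all genes. Against MED12 knockout the shares of all genes were 22.9 and 23.8%.

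Histone genes were ordered between the knockouts. Against MED23 knockout 12 of 18 were higher in MED19 knockout and none lower (median 0.68), and against MED12 knockout 1 was higher and 9 lower (median -0.36). H1-2 was higher by 1.15 against MED23 knockout and differed by -1.29 from MED12 knockout. Class I presentation genes showed the same order, 13 of 16 higher against MED23 and 15 of 16 lower against MED12 knockout. Cholesterol synthesis genes were lower in 11 of 20 cases and higher in 2 against MED23 knockout (median -0.10), with 7 higher and 8 lower against MED12 knockout. All 25 ribosomal protein genes were higher than in MED12 knockout, by a median of 0.18, as were 20 of 23 cell cycle genes. Beside these lists, 17.5% of all genes were higher and 16.1% lower against MED23 knockout, and 22.9 and 23.8% against MED12 knockout.

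Single genes separated the knockouts further. EGR1, an immediate early factor, averaged 14.6 ± 0.352 and 15.5 ± 1.34 CPM with the MED19 guides, against 2.17 ± 0.155 and 1.81 ± 0.0859 CPM with the MED23 guides (SD, n = 3 each; log2 difference 2.92). EGR1 mRNA was thus several-fold lower in MED23 knockout than in MED19 knockout. ACP3 (2.73), TAGLN3 (2.06), NAV3 (1.97) and PTPN22 (1.95) were the other genes highest against MED23 knockout. LPAR1 (-2.87), a receptor for lysophosphatidic acid, MAP2 (-2.62), a dendritic microtubule protein, PDE5A (-2.23), MAL2 (-2.06) and PXDN (-2.02), which crosslinks collagen IV, were the lowest. Against MED12 knockout, IGFBP5 (3.34), FLT1 (2.75), HAPLN1 (2.75) and MUC5B (2.73) were highest beside ERBB3. HAPLN1, which fell to 26.6 ± 1.56 and 60.6 ± 4.48 CPM with the MED19 guides, averaged 8.09 ± 0.618 and 4.41 ± 0.595 CPM with the MED12 guides.

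**Figure D5:**
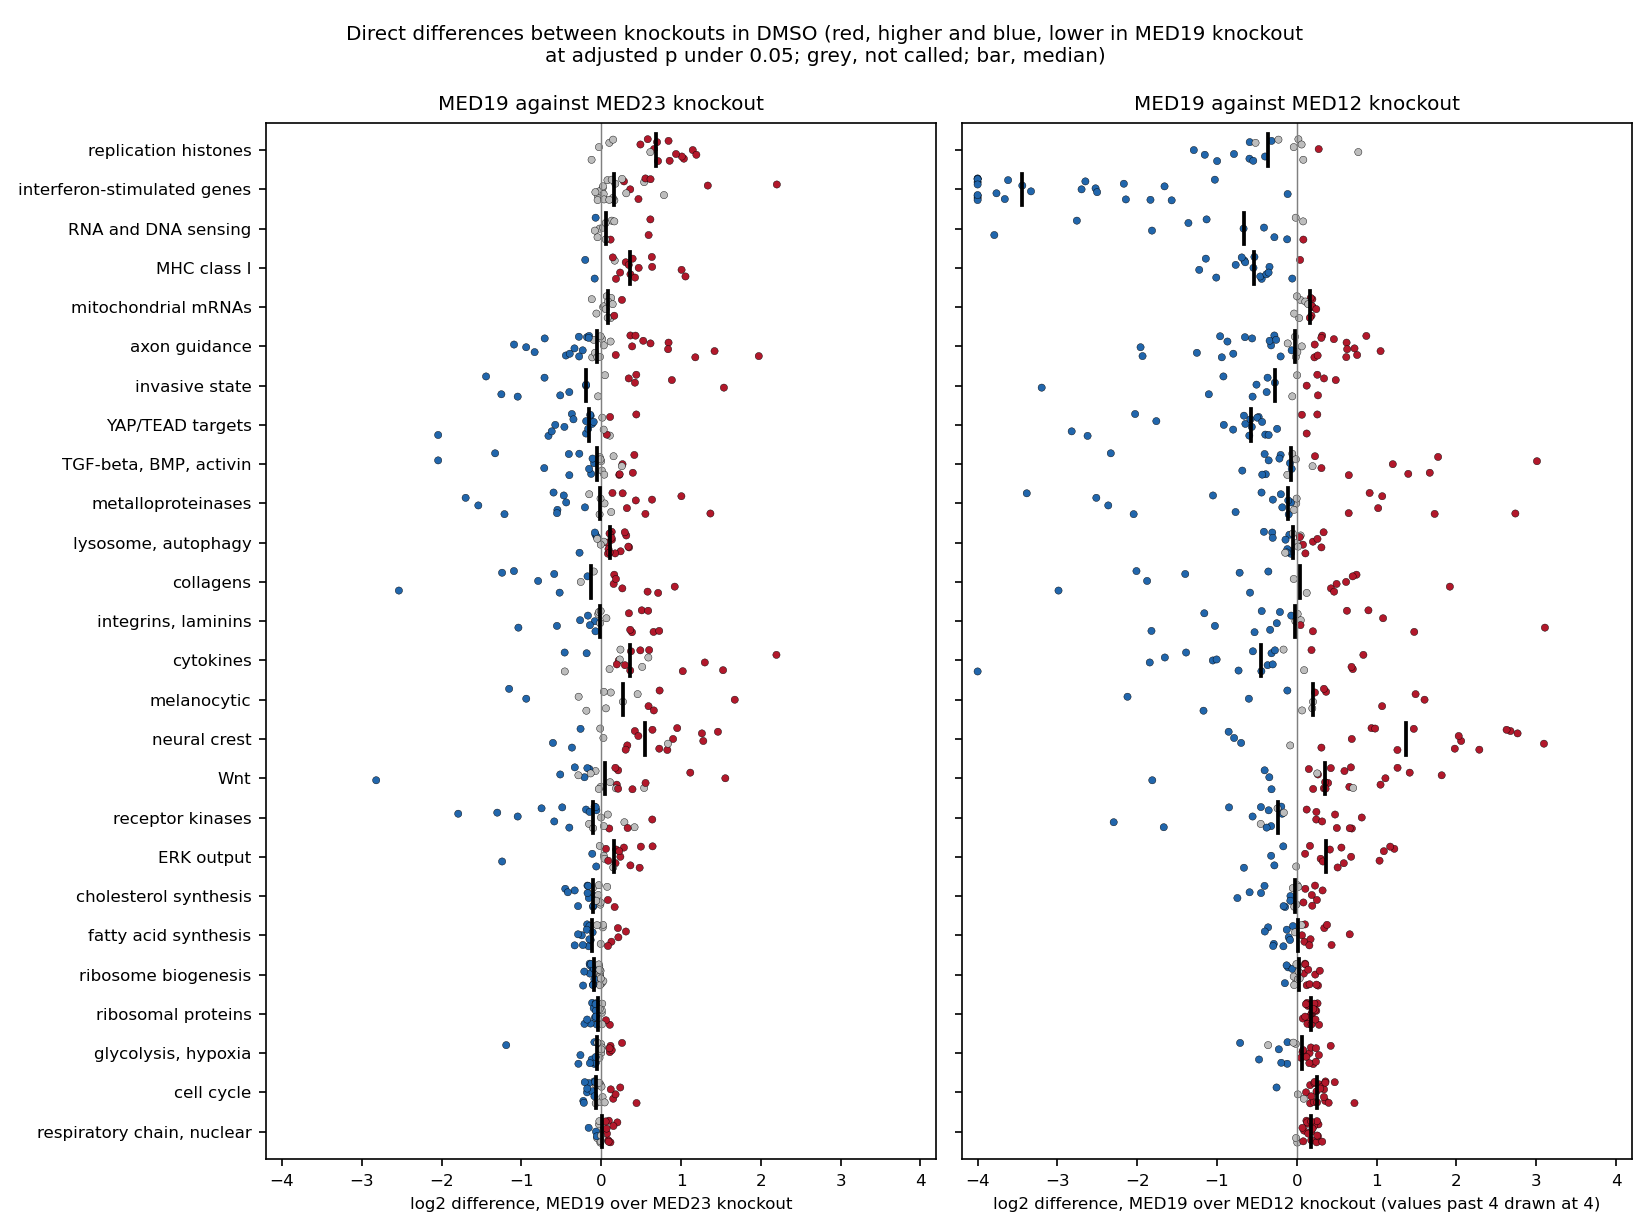
Log2 difference of each list member between MED19 and MED23 knockout (left panel) and between MED19 and MED12 knockout (right panel), positive where MED19 knockout is higher, with colours for the adjusted p and a black bar at the median over all tested members. Values beyond 4 are drawn at the edge. The interferon-stimulated row lies wholly under 0 against MED12 knockout, and the histone row above 0 at its median against MED23 knockout.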

How the data were processed

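Per the labels, RNA came from the RNeasy Plus Mini kit and libraries, which select poly(A) RNA, from the KAPA Stranded mRNA-Seq kit. The authors deposited read counts per gene (58721 Ensembl gene IDs, 42 libraries in 14 groups). Per the submitters' processing notes, bcl2fastq, HISAT2 and HTSeq were used on hg38. Versions, annotation, strand setting and the handling of multi-mapped reads were not given in the sources used here, and counts of overlapping genes and near-identical copies are uncertain. GENCODE 29 held 58676 of the IDs and a table of current symbols 58207, with coordinates on GRCh38. Promoters are from RefSeq (GRCh38.p14).

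All 42 libraries were fitted together in edgeR 4.0.16 (R 4.3.3): filterByExpr (minimum count 10, total 15), TMM scaling, a quasi-likelihood fit of group means, and both guides weighted equally. The threshold was an adjusted p (Benjamini-Hochberg) below 0.05, with a 2-fold minimum where stated, and list members at the adjusted p alone. Standard errors were taken from the fold change and the square root of F, and CPM uses the TMM-scaled library size. Counts of replicates in the 3 groups of MED19 knockout and control cells differed by 4.12 to 8.31 times the Poisson variance, and over all 14 groups by 4.01 to 20.9 times. The code was tested on simulated data.

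Alternatives were DESeq2 size factors, the Wald test of DESeq2 1.42.0, no low-count filter, a replicate block, only the groups compared, no fold minimum, each guide alone, the 6 knockout libraries as 1 group, each replicate left out and, added after seeing the data, total-count and upper-quartile scaling. The members and the 43 gene lists (764 entries) were chosen with earlier results of these data known. Named genes are MED19, the 12 highest and 12 lowest log2 fold changes (5 and 5 in other comparisons) among genes with an adjusted p under 0.05, a mean log2 CPM of at least 2, no overlap between libraries and, against control, both guides called alike, plus up to 5 members with the largest change per list, members that moved against their list, and members of the Mediator and lipid lists. Other members were named after their values were seen. Genes under 30 counts over 3 libraries of a group got no fold. Some genes that this rule names are not reported here.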

Additional observations from a re-analysis of the deposited data

Results flagged for a closer look

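The results below stand apart because the guides against MED19 differed from each other in a direct test (edgeR's quasi-likelihood test, adjusted p under 0.05), each given as the log2 difference of guide 1 minus guide 2. Among genes whose guide libraries did not overlap and whose mean level reached 2 on the log2 CPM scale, the widest positive gaps were those of AOX1 (1.22), ELAPOR1 (1.16), LAPTM5 (1.04), ILDR2 (1.00) and TMEM184A (0.94). The widest negative gaps were those of RXRG (-1.29), HAPLN1 (-1.19), FST (-1.01), PKNOX2 (-0.98) and MMP8 (-0.92). Called in opposite directions by the guides against control were 11 of the 27453 genes tested. Opposite calls against the same control libraries all but fix a difference between guides, so the direct test adds no separate support for these 11 genes. Those past the same level were UNC13A, a protein of synaptic vesicle priming (0.57), PLEKHA7, a junction protein (0.45), CCN1 (0.35), TP53INP1, a p53-inducible stress protein (0.28), ATP6V1A, a subunit of the lysosomal proton pump (0.13), PKM (-0.14) and NT5DC2 (-0.25), and those below it were ALPP (1.07), SGSM3 (0.79), HRCT1 (0.65) and INSIG1-DT (-0.77). What sets the guides apart was not tested.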

How the results depend on the processing

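Without a fold minimum, 5599 genes were higher and 5534 lower in MED19 knockout than in control cells, 1302 and 1492 with guide 1 than with guide 2, 4815 and 4427 in MED19 than in MED23 knockout, and 6291 and 6545 in MED19 than in MED12 knockout. Between guides, DESeq2's Wald test gave 110 genes higher, where edgeR gave 180, and a fit of only the groups compared gave 24 lower, where all groups gave 37. Leaving out 1 replicate at a time gave 132 to 165 genes higher and 22 to 37 lower between guides, the lowest without guide 1 replicate 2, 910 to 982 higher and 683 to 799 lower against control, 477 to 525 and 510 to 577 against MED23 knockout, 736 to 808 and 1751 to 1854 against MED12 knockout, and a log2 fold change of MED19 of -1.07 to -1.02. The replicate numbers did not pair the libraries: the correlation of deviations over 9 pairs with the same number was -0.15 to 0.0985, none above 0.1. With a replicate block the counts were 968 and 755 against control, 179 and 34 between guides, 499 and 541 against MED23 and 767 and 1748 against MED12 knockout, and MED19 stayed at -1.05. Of 263 results for single genes 2 changed sign and 17 lost their call under at least 1 alternative. DUSP6, not called, was at 0.0837 with guide 2 alone, 0.001 with only the groups compared and 0.0526 with total counts, and at -0.0098 to 0.0058 without single replicates. CCND1, not called, was at -0.0109 with guide 1 alone. The cause was not tested. With guide 2 alone calls were lost for ACAT2, EBP, FADS2, GPAM, HSD17B7, IFI44L, MC1R, MX2, NR1H2, NR1H3, RSAD2, SOAT1, STING1 and TEK, and with guide 1 alone for ACSL1, E2F1 and TM7SF2. With total counts alone ACAT2, ACSL1, EBP, FADS2, GPAM, HSD17B7, MX2 and NR1H3 lost theirs, and SOAT1 with DESeq2 size factors, upper-quartile scaling and no low-count filter. Losses without single libraries stand beside the genes above. Every other count over all genes stayed within 1.5 times its value under every alternative. Some counts of small lists did not: with total counts alone the middle module had 2 higher and 1 lower, the head module 3 and 1, cell cycle genes 2 and 10, glycolysis genes 4 and 9, heat shock genes 5 and 6, nuclear respiratory genes 6 and 7, and interferon-stimulated genes 13 and 0, and 2 genes of the invasive state were lower with DESeq2 size factors, upper-quartile scaling and DESeq2's Wald test. At this depth, genes under 30 counts over 3 libraries of a group gave no fold.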

Other observations

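Genes that mark other cell types, listed to check the identity of the cells, also differed between MED19 knockout and control cells. Of 6 endothelial markers 2 rose and 2 fell, beside 20.4 and 20.2% of all genes. KDR, the main receptor of VEGF, fell (-1.19 ± 0.11), with 3.02, 2.09 and 2.57 CPM with guide 1 and 2.98, 3.30 and 3.77 CPM with guide 2, against 6.85, 6.56 and 6.69 CPM in control cells, whereas TEK, the angiopoietin receptor, rose (0.89), though not at the threshold with guide 2 alone (0.44). CLDN4, a claudin of epithelial tight junctions, rose (0.94 ± 0.053), with 19.0, 20.6 and 20.5 CPM with guide 1 and 21.0, 20.0 and 20.9 CPM with guide 2, against 9.86, 10.7 and 11.0 CPM in control cells. The keratin genes KRT8 and KRT18, partners in simple epithelia, rose by 0.37 and 0.33, while KRT14, a keratin of basal epithelium, fell (-0.86). Of 7 fibroblast markers tested 3 rose and 3 fell. Of these, 1 rose and 1 fell by at least 2-fold, beside 3.56 and 2.74% of all genes. FAP, a protease of activated fibroblasts, rose (1.32), as did LUM, a small matrix proteoglycan (0.74), whereas DCN, another matrix proteoglycan, fell (-0.50). CSPG4, a surface proteoglycan of melanoma cells, fell (-0.75). No knockout library overlapped a control library for KDR or CLDN4.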
